A study of Eulimnogammarus verrucosus and Eulimnogammarus cyaneus and Gammarus lacustris with 24 samples.

Results

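Eulimnogammarus verrucosus is the large-bodied of the 2 Lake Baikal amphipods in a study of 3 species. Its response to a month in cold water is described here across every gene name that could be tied to a transcript. All 8 of its libraries were used, of 24 in the whole series. Tested animals were adults from the stony shore of Lake Baikal that were held at 6 °C for 14 days, cooled to 1.5 °C over about 6 days and kept at 1.5 °C for 1 month (4 pools). The animals set against them had the same 14 days at 6 °C, were warmed to 12 °C over about 6 days and were kept at 12 °C for 1 month (4 pools). Each library was made from the poly(A) RNA of whole bodies, with 3 animals ground together in a pool. Both groups therefore carry a temperature change away from 6 °C, and no pool kept at 6 °C was analysed here.

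Amphipods are ectotherms, so the temperature of the water is that of their cells. Cold slows enzymes, stiffens membranes and hampers the folding and assembly of proteins, and ectotherms held in the cold for weeks often adjust the machinery of protein synthesis, folding and breakdown, the lipids and channels of their membranes, and the fuel metabolism of their mitochondria. E. verrucosus is a cold-adapted endemic of the shallow stony bottom of Lake Baikal. Roles given to genes are those of the human, fly or worm genes whose names the authors assigned to the transcripts, and they were not measured in amphipods.

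The files hold 54473 transcripts of E. verrucosus, and estimated read counts summed to between 10187224 and 15417719 per pool. The authors' deposited table has 3920 gene names, of which 2800 (71.4%) could be joined to their transcripts, and these hold between 9.99% and 20.7% of a pool's reads. Of the joined names, 1648 had enough reads to be tested, out of 23836 features tested in all. A feature is 1 transcript, or the summed transcripts of 1 name, and levels are given as CPM, a library's reads for the feature scaled to a common library size, which are not corrected for length and so are compared only within a gene. The labels name no batch.

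Temperature set the pools apart along the first axis of variation, and 2 pools stood apart along the second. On the first principal component of all tested features, which held 29.3% of the variance, the 1.5 °C pools lay between 80.4 and 90.2 and the 12 °C pools between -112.7 and -72.8. The second component held 24.1% and set 1.5 °C pool 4 (164.9) and 12 °C pool 1 (91.57) apart from the other 6 pools, which lay between -67.8 and -20.4. Those 2 pools had the smallest totals of the 8. They were also the highest of their own temperature in summed muscle markers, of which 6 of 13 names were joined. Most of that sum was the myosin Mhc1, at 35100 CPM in 1.5 °C pool 4 and 63900 CPM in 12 °C pool 1. MYL6, Mlc1 and Unc-89 were also highest in those pools. The tropomyosin Tm1 and the actinin actn1 were not, at 11.8 and 0.124 CPM in 1.5 °C pool 4 and 14.9 and 0 CPM in 12 °C pool 1. The muscle sum was 10300, 19100, 11200 and 36800 CPM in the 1.5 °C pools and 66200, 17400, 38600 and 17900 CPM in the 12 °C pools, so the groups overlapped. Cuticle markers (4 of 6 joined) summed to between 87.3 and 2840 CPM at 1.5 °C and between 780 and 4180 CPM at 12 °C, and markers of the nervous system and eye (3 of 5 joined) to between 165 and 377 CPM at 1.5 °C and between 161 and 605 CPM at 12 °C. Midgut enzymes (6 of 7 joined) were even, at 14.3 to 19.1 CPM in the 1.5 °C pools and 13.7 to 20.5 CPM in the 12 °C pools. No marker was at 0 in all 8 pools. The yolk and ovary markers joined (2 of 4) stayed under 1.5 CPM in every pool, and none of the 3 hemocyte markers was joined. The part of tissue makeup in the results was not tested, and in whole-body pools fewer cells of a type and less RNA per cell cannot be told apart. Calls that named genes lost without the 2 pools are given below. Not every call gained without them is named.

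**Figure D1:**
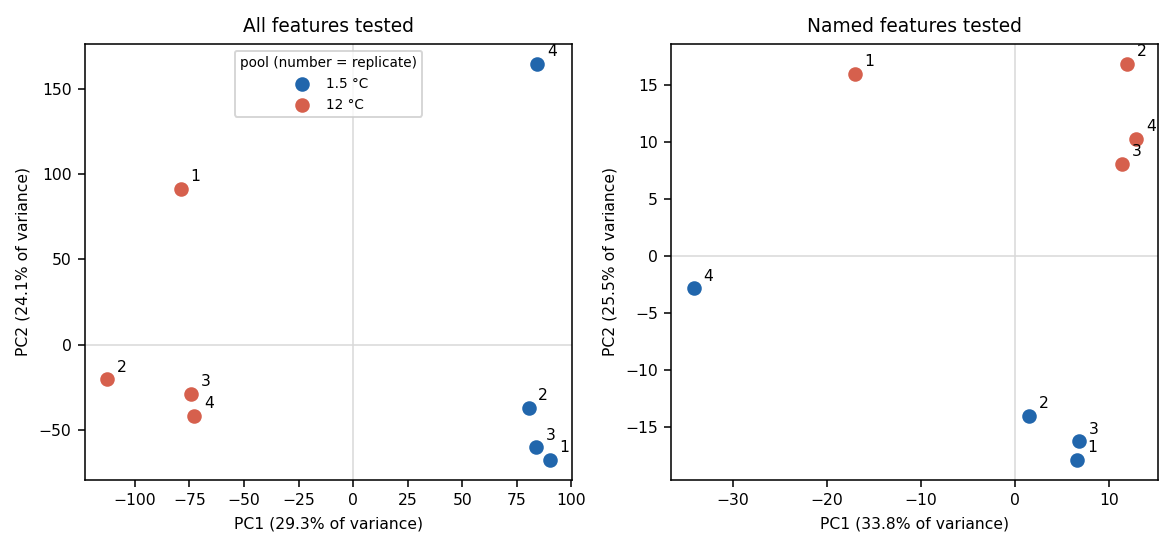
First and second principal components of log2 CPM over all tested features (left) and over the tested named features (right), 1 point per pool, with 1.5 °C pools in blue, 12 °C pools in red and the pool number beside each point. Temperature separates along the first component over all features and along the second over the named ones, where 1.5 °C pool 4 (-34.19) and 12 °C pool 1 (-17.05) lie at the low end of the first.

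Over all features, 799 of 23836 (3.35%) passed an adjusted p of 0.05 in edgeR's quasi-likelihood test, 317 higher and 482 lower at 1.5 °C. The losses were the larger changes. Of the 482 that fell, 245 (50.8%) had no read in any 1.5 °C pool, while 26 of the 317 that rose had none in any 12 °C pool. The median log2 fold change was 3.23 among those that rose and -8.21 among those that fell. With features at 0 set to the smallest change that 3 reads over the group would allow, the median of those that fell was -6.23.

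Among the named genes calls were fewer. Of 1648 tested, 25 (1.52%) passed, 13 higher and 12 lower. At an unadjusted p under 0.05 there were 143. The middle of the distribution lay at 0: 821 named genes had a positive and 827 a negative log2 fold change, the median was -0.001 and the quartiles were -0.291 and 0.265. Changes of more than 2-fold were fitted for 62 names upward and 50 downward. In none of the 25 did the 1.5 °C and 12 °C pools overlap, which selection by a test on the same values favours. Names that did not pass, such as hspa8, XBP1 and EIF3H, were also without overlap. The share without overlap among all tested features was not counted. In the authors' deposited table, 151 of 3217 names with an adjusted p (4.69%) were called, 87 higher (2.7%) and 64 lower (1.99%). All 25 names that passed here were among those 151. Over all 3920 names of the authors' deposited table, 2113 log2 fold changes were positive and 1807 negative, with a median of 0.058. A name that did not pass is not thereby shown to be the same at both temperatures.

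**Figure D2:**
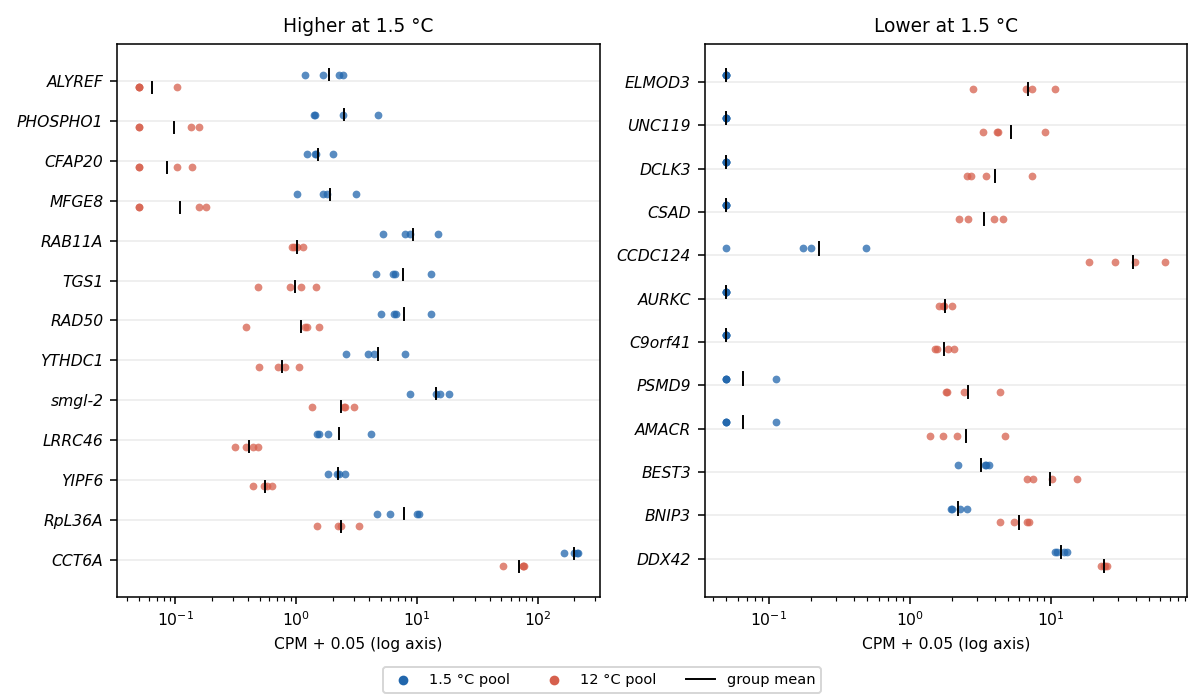
CPM of the 25 named genes that passed the test, on a log axis with 0.05 added so that pools at 0 can be drawn, with 1.5 °C pools in blue above 12 °C pools in red and a black bar at each group's mean. The 13 genes on the left were higher at 1.5 °C and the 12 on the right were lower, and 9 of these 12 sit at or near 0 CPM in the 1.5 °C pools.

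Among genes that fold, mark and break down proteins, a chaperonin subunit rose and a proteasome assembly factor was nearly absent. CCT6A, a subunit of the chaperonin ring that folds actin and tubulin, had 201, 166, 210 and 214 CPM in the 1.5 °C pools and 74.9, 77.3, 51.5 and 74.7 CPM in the 12 °C pools. Every 1.5 °C pool was more than 2-fold above the highest 12 °C pool. Its means were 198 ± 22 CPM at 1.5 °C and 69.6 ± 12.1 CPM at 12 °C (SD, n = 4 each), a log2 fold change of 1.51 (SE 0.24, adjusted p = 0.00848 in edgeR). Of 9 names of the ring, 2 were tested here, CCT6A and cct7, and cct7 did not pass in edgeR (adjusted p = 0.021 in DESeq2). In the authors' deposited table, 7 of the 9 had a positive log2 fold change and 4 were called, all upward. Besides CCT6A these were CCT2 (0.90, SE 0.21), CCT8L2 (1.06, SE 0.23) and cct7 (0.87, SE 0.27), named after their values were seen.

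PSMD9, which helps assemble the regulatory cap of the proteasome, went the other way. It had 0, 0, 0.0627 and 0 CPM in the 1.5 °C pools and 2.36, 4.30, 1.76 and 1.79 CPM in the 12 °C pools. That is 1 read over the 1.5 °C pools and 121 over the 12 °C pools. The ratio of levels, 12 °C over 1.5 °C, was 144 with a 95% Poisson interval of 25.3 to 5720, which covers counting error only (adjusted p = 0.00206 in edgeR).

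The proteasome itself did not follow PSMD9. Of its 10 tested subunits and helpers, 7 had a positive and 3 a negative log2 fold change, with a median of 0.36 that ranged from 0.08 to 0.55 when each pool was left out in turn. PSMD9 was the 1 that passed. ADRM1, a ubiquitin receptor of the proteasome, had 26.6, 26.9, 23.4 and 41.6 CPM at 1.5 °C and 15.6, 16.3, 14.7 and 17.4 CPM at 12 °C without passing (log2 fold change 0.89, SE 0.24, adjusted p = 0.12 in edgeR). In the authors' deposited table, 27 of 33 proteasome names were positive. PSMC1 (0.85, SE 0.24), PSMD6, ADRM1 and PSMA7 were called upward there, and PSMD9 and PSMD14 (-1.32, SE 0.36) downward. The mean normalised count there, averaged over the pools, was only 2.68 for PSMA7.

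No tested member of the classical heat shock list passed in edgeR. Of 16 tested heat shock proteins and co-chaperones, 11 were positive and 5 negative, with a median of 0.19. The authors' deposited table had 40 positive and 21 negative of 61 names and called hspa8 (0.89, SE 0.26), DNAJC2 (0.67, SE 0.17) and DNAJC21 (0.84, SE 0.27) upward and Hsc70-5 (-4.64, SE 0.70) downward. The constitutive Hsp70 hspa8 had 93.6, 65.4, 87.4 and 55.9 CPM at 1.5 °C and 33.8, 50.4, 26.8 and 49.9 CPM at 12 °C, groups that do not overlap, but its adjusted p was 0.228 (edgeR). DNAJC2, a J-domain partner of Hsp70 on ribosomes, averaged 71.7 ± 8.11 CPM at 1.5 °C and 44.2 ± 3.13 CPM at 12 °C (SD, n = 4 each, adjusted p = 0.144 in edgeR and 0.00215 in DESeq2). DNAJC21, a J-domain protein named like DNAJC2, averaged 15.5 ± 4 CPM at 1.5 °C and 8.45 ± 1.64 CPM at 12 °C (SD, n = 4 each, adjusted p = 0.208 in edgeR). Ppib, a cyclophilin with more reads than any other tested member, averaged 577 ± 72.6 CPM at 1.5 °C and 592 ± 80.7 CPM at 12 °C.

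In the endoplasmic reticulum, 17 of 27 tested genes were positive, 10 negative and none passed. The authors' deposited table had 40 positive and 20 negative of 60 and called DERL2 downward (-6.45, SE 1.20). DERL2 had a mean normalised count of only 7.37. XBP1, a transcription factor of the unfolded protein response, had 87.2, 137, 107 and 88.2 CPM at 1.5 °C and 138, 148, 190 and 152 CPM at 12 °C (log2 fold change -0.58, SE 0.25, adjusted p = 0.419 in edgeR). Ubiquitin conjugation was split evenly, at 27 positive and 27 negative of 54 with none past the threshold. The authors' deposited table had 70 positive and 51 negative of 121, and 5 were called, all upward.

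Of the 13 named genes that rose, ALYREF, smgl-2, YTHDC1 and TGS1 bear names of genes that act on RNA, as does DDX42, which fell. They were set side by side after the calls were seen, and YTHDC1 and TGS1 belong to no function list. The share of such genes among all tested names was not counted. ALYREF, an adaptor that carries mRNA to the export machinery, had 2.19, 2.40, 1.13 and 1.61 CPM in the 1.5 °C pools and 0, 0, 0 and 0.0541 CPM in the 12 °C pools. With 110 reads at 1.5 °C and 1 at 12 °C, the ratio of levels, 1.5 °C over 12 °C, was 92.7 (95% Poisson interval 16.3 to 3690, adjusted p = 0.00192 in edgeR). The other transcript of the same assembled component was also absent at 12 °C, with 0.199, 0.274, 0 and 0.372 CPM at 1.5 °C and 0 in all 4 pools at 12 °C.

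smgl-2, named after a worm gene of nonsense-mediated mRNA decay, had 14.2, 8.71, 15.5 and 18.2 CPM at 1.5 °C and 1.31, 2.98, 2.43 and 2.49 CPM at 12 °C (log2 fold change 2.61, SE 0.36, adjusted p = 0.00408 in edgeR). YTHDC1, a nuclear reader of methylated adenosines in RNA, had 3.89, 2.54, 4.32 and 7.93 CPM at 1.5 °C and 0.655, 0.438, 1.01 and 0.758 CPM at 12 °C (log2 fold change 2.68, SE 0.46, adjusted p = 0.0115 in edgeR). TGS1, which adds the trimethylguanosine cap to small nuclear RNAs, had 6.33, 4.53, 6.52 and 12.9 CPM at 1.5 °C and 1.05, 1.40, 0.838 and 0.433 CPM at 12 °C (log2 fold change 3.03, SE 0.49, adjusted p = 0.00863 in edgeR). In every named gene that rose except ALYREF, the highest of the 8 values was that of 1.5 °C pool 4, which stood apart. Without the 2 pools that stood apart, smgl-2, YTHDC1 and TGS1 kept their call. The adjusted p was then 0.0186 for smgl-2, 0.041 for YTHDC1 and 0.0401 for TGS1 (edgeR). Of all named genes that rose, only RAD50 and RpL36A lost the call without those pools.

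The list for mRNA 3' processing, decay and export had 27 tested members, 19 positive and 8 negative, with a median of 0.27 that stayed between 0.21 and 0.36 when 1 pool was left out. ALYREF and smgl-2 were its 2 calls. Of the list's 44 names 32 were positive in the authors' deposited table, where DCPS and THOC7 were called upward as well. THOC7, a subunit of the export complex to which ALYREF binds, had 51.8, 51.2, 62.0 and 43.1 CPM at 1.5 °C and 33.9, 25.8, 33.4 and 27 CPM at 12 °C, without overlap but without passing (log2 fold change 0.79, SE 0.22, adjusted p = 0.121 in edgeR).

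The 1 splicing gene that passed fell, while most of the list had positive values that did not pass. DDX42, a helicase that works with the branch-point complex of the spliceosome, had 10.7, 12.3, 12.9 and 11.0 CPM at 1.5 °C and 24, 25.1, 24.3 and 22.7 CPM at 12 °C, with little spread inside either group. Its log2 fold change was -1.03 (SE 0.19, adjusted p = 0.0178 in edgeR). The call was lost in 6 of the 8 fits that left out a pool, namely each of 12 °C pools 2 to 4 and 1.5 °C pools 1 to 3, where the adjusted p lay between 0.0509 and 0.079. The 38 tested splicing genes were 26 positive and 12 negative with a median of 0.17. Positive values made up 69 of 96 in the authors' deposited table, with 4 called upward and 3 downward. SRSF7, a splicing regulator, had 9.47, 9.19, 9.90 and 16.9 CPM at 1.5 °C and 21.9, 24.7, 16.1 and 23.6 CPM at 12 °C, where 1.5 °C pool 4 overlapped the 12 °C pools (log2 fold change -0.93, SE 0.28, adjusted p = 0.179 in edgeR).

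Among ribosomal proteins, ribosome assembly genes and translation factors a single gene passed. RpL36A, a protein of the large ribosomal subunit, had 9.97, 4.59, 5.95 and 10.3 CPM at 1.5 °C and 1.44, 2.28, 3.27 and 2.17 CPM at 12 °C. The log2 fold change was 1.74 (SE 0.39, adjusted p = 0.0486 in edgeR), just inside the threshold. It lost the call in every leave-one-out fit but that without 1.5 °C pool 2, with an adjusted p of up to 0.151, and without both pools that stood apart (0.127). Of 12 tested cytosolic ribosomal proteins 10 were positive, with a median of 0.88, but the pools of both groups overlapped widely. Over the whole list the authors' deposited table was nearly even, at 49 positive and 44 negative of 93 with a median of 0.09, and called 7 upward and 3 downward. RpS27A had 1710, 1210, 1530 and 3380 CPM at 1.5 °C and 2320, 1510, 1300 and 1410 CPM at 12 °C. As a list, the ribosomal proteins were highest of each temperature in 1.5 °C pool 4 and 12 °C pool 1, with members' median log2 level 0.75 and 0.50 above their mean over the pools.

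Of 30 tested ribosome biogenesis genes, 21 were positive and 9 negative, with a median of 0.32 and none past the threshold. The median was 0.01 in 1 leave-one-out fit. GAR1, a protein of the small nucleolar particles that pseudouridylate ribosomal RNA, had 35.2, 34.5, 37.7 and 43.1 CPM at 1.5 °C and 22.5, 23.8, 14.7 and 14.7 CPM at 12 °C (log2 fold change 0.99, SE 0.25, adjusted p = 0.083 in edgeR). NOB1, a nuclease of small-subunit maturation, averaged 158 ± 18.1 CPM at 1.5 °C and 97.6 ± 10.7 CPM at 12 °C (SD, n = 4 each, adjusted p = 0.199 in edgeR). In the authors' deposited table, 55 of 71 biogenesis names were positive, and FBL (0.96, SE 0.24), GAR1 and NOB1 were called, all upward.

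Translation factors were positive in 20 of 25 tested (median 0.23) and tRNA synthetases and tRNA modification in 18 of 24 (median 0.19), with no call in either. Of 52 translation factors, 36 were positive in the authors' deposited table, with 2 called upward and 1 downward, and of 54 tRNA genes 41, with no call. EIF3H, a subunit of an initiation factor, had 95.9, 97.5, 95.8 and 103 CPM at 1.5 °C and 75.4, 75.1, 69.1 and 63.5 CPM at 12 °C (log2 fold change 0.47, SE 0.20, adjusted p = 0.395 in edgeR). Mitochondrial translation had 14 positive and 13 negative of 27 with a median of 0.06.

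A protein linked to resting ribosomes gave the largest number of reads lost by any named gene that fell to near 0. CCDC124, whose human and yeast forms bind idle ribosomes, had 0.15, 0, 0.439 and 0.124 CPM in the 1.5 °C pools and 39.8, 64.9, 18.6 and 28.5 CPM in the 12 °C pools. Its means were 0.178 ± 0.186 CPM at 1.5 °C and 38 ± 19.9 CPM at 12 °C (SD, n = 4 each), from 11 and 1793 reads (log2 fold change -7.62, SE 0.85, adjusted p = 0.00176 in edgeR). A second transcript of the same component showed the same pattern, with 0, 0, 0.0627 and 0 CPM at 1.5 °C and 15.5, 25.8, 11.9 and 10.6 CPM at 12 °C.

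**Figure D3:**
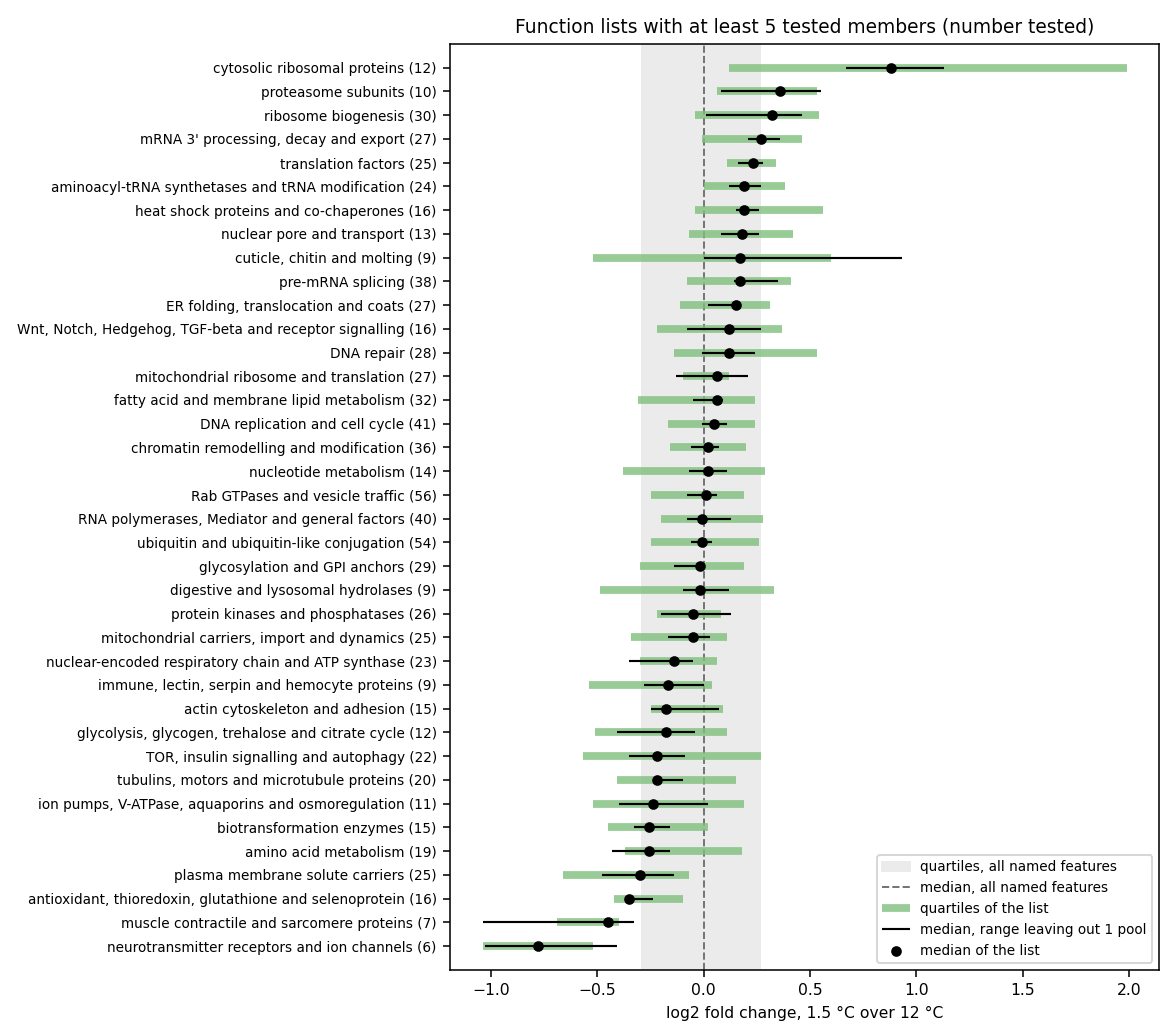
Log2 fold change (1.5 °C over 12 °C) of the 38 function lists with at least 5 tested members, with the number tested in brackets. Points are medians, green bars quartiles, thin black lines the range of the median when each pool was left out, and the grey band and dashed line the quartiles and median of all 1648 named genes. Ribosome, proteasome and RNA lists lie at the top, channel, muscle, antioxidant and solute carrier lists at the bottom, and 19 medians are positive and 19 negative.

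Genes of DNA repair and the cell cycle gave 1 call each, in opposite directions. RAD50, part of the complex that binds broken DNA ends, had 6.63, 4.94, 6.45 and 13.1 CPM at 1.5 °C and 1.18, 1.49, 0.335 and 1.14 CPM at 12 °C (log2 fold change 2.90, SE 0.51, adjusted p = 0.0143 in edgeR). The adjusted p was 0.0568 without 12 °C pool 4 and 0.0626 without both pools that stood apart. AURKC, an Aurora kinase of the dividing cell, had no read in any 1.5 °C pool and 1.70, 1.93, 1.68 and 1.57 CPM in the 12 °C pools, from 84 reads.

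For genes at 0 in all 1.5 °C pools the fold is given as a bound, against a floor of 3 reads over the group. AURKC was at least 33.6-fold lower at 1.5 °C (adjusted p = 0.00265 in edgeR). DNA replication and cell cycle had 23 positive and 18 negative of 41 (median 0.05), and DNA repair 16 positive and 12 negative of 28 (median 0.12). PCNA, the sliding clamp of replication, had 62.7, 102, 81.1 and 80.9 CPM at 1.5 °C and 71.9, 52, 62.8 and 48.7 CPM at 12 °C (adjusted p = 0.543 in edgeR). UVSSA, a transcription-coupled repair protein, had 5.53, 6.17, 5.89 and 7.81 CPM at 1.5 °C and 14.4, 10.9, 13.1 and 11.3 CPM at 12 °C, separate but not past the threshold (log2 fold change -0.97, SE 0.23, adjusted p = 0.0751 in edgeR). Chromatin (36 tested, median 0.02) and general transcription factors (40 tested, median -0.01) had no call.

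RAB11A, the GTPase of recycling endosomes and the 1 call of the Rab and vesicle list, rose. It had 8.72, 5.21, 7.83 and 15.0 CPM at 1.5 °C and 0.917, 0.877, 1.09 and 0.975 CPM at 12 °C. Its mean was 9.19 ± 4.15 CPM at 1.5 °C and 0.964 ± 0.0923 CPM at 12 °C (SD, n = 4 each), and the log2 fold change was 3.23 (SE 0.39, adjusted p = 0.00224 in edgeR). The whole list, RAB11A included, had 29 positive and 27 negative of 56 and a median of 0.01. The authors' deposited table had 70 positive and 63 negative of 133, with 2 called upward and 3 downward.

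The genes that follow, up to DCLK3, belong to no function list and are set side by side by the roles of their names. YIPF6, a Golgi membrane protein that binds Rab GTPases, had 1.79, 2.19, 2.13 and 2.48 CPM at 1.5 °C and 0.393, 0.526, 0.586 and 0.487 CPM at 12 °C (log2 fold change 2.07, SE 0.30, adjusted p = 0.00558 in edgeR). The second transcript of its component, which has no joined name, did not show this. It had 15.6, 17.4, 19.4 and 3.97 CPM at 1.5 °C and 9.04, 18.7, 21.3 and 16.9 CPM at 12 °C, lowest in the 2 pools that stood apart. ELMOD3, a GTPase-activating protein of ARL GTPases, had no read at 1.5 °C and 2.75, 10.6, 7.37 and 6.61 CPM at 12 °C, and was at least 134-fold lower (adjusted p = 0.00405 in edgeR).

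UNC119, a chaperone that carries lipid-anchored proteins to cilia and photoreceptors, likewise had no read at 1.5 °C and 3.27, 9.03, 4.19 and 4.11 CPM at 12 °C, at least 101-fold lower (adjusted p = 0.00374 in edgeR). CFAP20, a protein of ciliary microtubules, went the other way, with 1.40, 1.17, 1.38 and 1.98 CPM at 1.5 °C and 0, 0.0877, 0 and 0.0541 CPM at 12 °C. Its ratio of levels, 1.5 °C over 12 °C, was 35 (95% Poisson interval 9.38 to 294, adjusted p = 0.0027 in edgeR). LRRC46, a leucine-rich repeat protein, had 1.79, 1.44, 1.50 and 4.09 CPM at 1.5 °C and 0.393, 0.263, 0.335 and 0.433 CPM at 12 °C (log2 fold change 2.57, SE 0.47, adjusted p = 0.0165 in edgeR). LRRC46 lost its call without 12 °C pool 2, 3 or 4, where the adjusted p was 0.0742, 0.0649 and 0.0585. DCLK3, a kinase of the doublecortin family, had no read at 1.5 °C and 3.41, 7.36, 2.51 and 2.65 CPM at 12 °C, at least 77.9-fold lower (adjusted p = 0.00558 in edgeR). Tubulins, motors and microtubule proteins as a list had 9 positive and 11 negative of 20 and a median of -0.22, against 29 positive and 27 negative of 56 in the authors' deposited table.

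A further 5 called genes belong to no function list, and their names are those of 4 metabolic enzymes and a lipid-binding protein. PHOSPHO1, a phosphatase of phosphocholine and phosphoethanolamine, had 1.35, 1.37, 2.38 and 4.71 CPM at 1.5 °C and 0, 0, 0.0838 and 0.108 CPM at 12 °C. From 123 and 3 reads the ratio of levels was 34.6 (95% Poisson interval 11.6 to 170, adjusted p = 0.00647 in edgeR). MFGE8, in mammals a secreted protein that binds phosphatidylserine on dying cells, had 1.74, 0.96, 1.63 and 3.10 CPM at 1.5 °C, from 100 reads, and at 12 °C only 3 reads over the 4 pools, with pools 2 and 3 at 0. Its ratio of levels was 28.1 (95% Poisson interval 9.34 to 139, adjusted p = 0.00823 in edgeR). A further transcript of its component was also found at 1.5 °C only, at 1.35, 0.823, 1.94 and 3.22 CPM against 0 CPM in the 4 pools at 12 °C.

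The other 3 enzymes fell. AMACR, a racemase of branched-chain fatty acids, had 0, 0, 0.0627 and 0 CPM at 1.5 °C and 2.10, 4.65, 1.34 and 1.68 CPM at 12 °C, and the ratio of levels, 12 °C over 1.5 °C, was 138 (95% Poisson interval 24.2 to 5480, adjusted p = 0.00312 in edgeR). CSAD, a decarboxylase of taurine synthesis, had no read at 1.5 °C and 3.93, 4.56, 2.18 and 2.54 CPM at 12 °C, at least 64.6-fold lower (adjusted p = 0.00321 in edgeR). C9orf41, which methylates the dipeptide carnosine, had no read at 1.5 °C and 1.83, 2.02, 1.51 and 1.46 CPM at 12 °C, at least 33.3-fold lower (adjusted p = 0.00301 in edgeR). All 3 sat at or near 0 in every 1.5 °C pool, whether or not the pool stood apart.

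The metabolic lists had no call among their tested members. Fatty acid and membrane lipid metabolism had 17 positive and 15 negative of 32 (median 0.06), and 54 positive and 37 negative of 91 in the authors' deposited table. SCD, the desaturase that makes monounsaturated fatty acids, had 225, 350, 206 and 75.2 CPM at 1.5 °C and 83.6, 125, 265 and 195 CPM at 12 °C, with full overlap (log2 fold change 0.36, SE 0.51, adjusted p = 0.894 in edgeR). Amino acid metabolism had 6 positive and 13 negative of 19 (median -0.26), although MTHFSD, the member with most reads, had a log2 fold change of 0.51 (SE 0.33). Over the whole list the authors' deposited table had 26 positive and 24 negative of 50 (median 0.05) and called ALDH6A1 upward (6.13, SE 1.31). The mean normalised count of ALDH6A1 was only 7.05. Glycolysis, sugar stores and the citrate cycle had 6 positive and 6 negative of 12 (median -0.18), against 27 positive and 17 negative of 44 (median 0.21) in the authors' deposited table, with no call in either. PFKFB2, which sets the level of a glycolytic activator, had 22.8, 12.3, 19.7 and 10.7 CPM at 1.5 °C and 22.9, 37.7, 23.6 and 37.6 CPM at 12 °C, separate by a hair's breadth (adjusted p = 0.304 in edgeR).

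In mitochondria BNIP3 fell, and no tested respiratory subunit passed. BNIP3, an outer-membrane receptor for the removal of mitochondria, had 2.49, 1.92, 1.94 and 2.23 CPM at 1.5 °C and 4.32, 6.93, 5.44 and 6.77 CPM at 12 °C (log2 fold change -1.45, SE 0.28, adjusted p = 0.0228 in edgeR). It lost the call in 6 of 8 leave-one-out fits, namely without 12 °C pool 2, 3 or 4 or 1.5 °C pool 1, 2 or 3, with an adjusted p between 0.0507 and 0.0865. The second transcript of its component, without a joined name, had 11.9, 16.5, 18 and 4.71 CPM at 1.5 °C and 5.63, 22.4, 25.2 and 18.8 CPM at 12 °C, which overlap.

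Nuclear-encoded respiratory chain and ATP synthase genes had 6 positive and 17 negative of 23, with a median of -0.14 (-0.35 to -0.05 when 1 pool was left out) and no call. The authors' deposited table had 21 positive and 27 negative of 48 and called ATP5SL (1.48, SE 0.46) and SURF1 (0.86, SE 0.23), both upward. ATP5B, a catalytic subunit of ATP synthase, had 172, 159, 152 and 308 CPM at 1.5 °C and 322, 285, 210 and 262 CPM at 12 °C, and only 1.5 °C pool 4 reached into the 12 °C range. SURF1, an assembly factor of cytochrome oxidase, ran the other way at 20.7, 19.1, 15.4 and 18.8 CPM at 1.5 °C and 10.2, 10.5, 11.1 and 8.82 CPM at 12 °C, without overlap (log2 fold change 0.87, SE 0.21, adjusted p = 0.0754 in edgeR). ATP5SL, named for its likeness to a subunit of ATP synthase, had 21.7, 13.3, 6.20 and 22.1 CPM at 1.5 °C and 4.19, 5.44, 8.04 and 5.09 CPM at 12 °C, where 1.5 °C pool 3 overlapped the 12 °C pools (log2 fold change 1.47, SE 0.43, adjusted p = 0.156 in edgeR and 0.0348 in DESeq2). Mitochondrial carriers and import were even, at 11 positive and 14 negative of 25.

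No tested gene of the lists for defence against oxidants and foreign compounds passed in edgeR with every pool included. Of 16 tested antioxidant, thioredoxin, glutathione and selenoprotein genes 13 were negative, and the median of -0.35 stayed between -0.36 and -0.24 when 1 pool was left out. Over the whole list the authors' deposited table was nearer to even, at 18 positive and 21 negative of 39 (median -0.12), with SELENOH called downward. SELENOH, a nuclear selenoprotein, had 20.7, 22.4, 29.3 and 26 CPM at 1.5 °C and 33.7, 45.1, 34.9 and 39 CPM at 12 °C, without overlap (log2 fold change -0.63, SE 0.21, adjusted p = 0.252 in edgeR). SOD2, the mitochondrial superoxide dismutase, had 281, 231, 302 and 447 CPM at 1.5 °C and 354, 284, 211 and 235 CPM at 12 °C (log2 fold change 0.22, SE 0.30, adjusted p = 0.89 in edgeR). Of 15 tested biotransformation enzymes 11 were negative (median -0.26), against 20 positive and 21 negative of 41 (median -0.08) in the authors' deposited table. The authors' deposited table called ABCC3 (3.07, SE 0.49) and comt (4.43, SE 1.28) upward and SULT1C3 and EPHX1 downward. Mean normalised counts were only 3.71 for comt and 33.4 for ABCC3. SULT1C3, a sulfotransferase, had 96.1, 113, 70.8 and 66.2 CPM at 1.5 °C and 103, 292, 283 and 354 CPM at 12 °C, where 12 °C pool 1 overlapped the 1.5 °C pools (log2 fold change -1.57, SE 0.41, adjusted p = 0.0971 in edgeR). Without both pools that stood apart it passed (adjusted p = 0.0251 in edgeR). EPHX1, an epoxide hydrolase, averaged 37.8 ± 4.61 CPM at 1.5 °C and 55.4 ± 1.23 CPM at 12 °C (SD, n = 4 each, adjusted p = 0.277 in edgeR).

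At the cell surface a chloride channel was the 1 gene of the channel, receptor and carrier lists that passed, and it fell. BEST3, a bestrophin channel opened by calcium, had 2.14, 3.57, 3.45 and 3.35 CPM at 1.5 °C and 15.2, 7.45, 10.1 and 6.71 CPM at 12 °C (log2 fold change -1.65, SE 0.35, adjusted p = 0.0365 in edgeR). Its call held in 1 of 8 leave-one-out fits, that without 12 °C pool 4. Without any other pool the adjusted p lay between 0.0611 and 0.111, and it was 0.0815 without both pools that stood apart. The other 10 tested ion pumps, aquaporins and osmoregulatory genes had no call. The authors' deposited table had 21 positive and 17 negative of 38 on this list and called the carbonic anhydrases CA3 (5.57, SE 1.61) and CA4 (6.53, SE 1.62) upward, and BEST3 and ATP10B downward. Mean normalised counts were only 4.72 for CA3, 13.6 for CA4 and 3.02 for ATP10B, against 85.1 for BEST3.

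Of 6 tested neurotransmitter receptors and ion channels, 5 were negative and the median was -0.78 (-1.03 to -0.41 when 1 pool was left out). GABRB2, a GABA receptor subunit, had 7.08, 7.88, 7.71 and 8.43 CPM at 1.5 °C and 16.6, 14.9, 23.5 and 11.8 CPM at 12 °C, without overlap (log2 fold change -1.10, SE 0.26, adjusted p = 0.0715 in edgeR). The authors' deposited table called GABRB2 (-1.13, SE 0.30) and the calcium channel subunit CACNB2 (-2.06, SE 0.53) downward, and 25 of its 37 names on this list were negative. Mean normalised counts were 158 for GABRB2 and 12.7 for CACNB2. Of 25 solute carriers tested, 19 were negative (median -0.30, between -0.48 and -0.14 when 1 pool was left out). The authors' deposited table had 26 positive and 38 negative of 64, and the 1 call was upward, SLC22A16 (0.63, SE 0.21). SLC8A3, a sodium and calcium exchanger, had 5.13, 11.8, 8.33 and 4.83 CPM at 1.5 °C and 9.56, 15.0, 30.7 and 17.7 CPM at 12 °C, and the groups overlapped (adjusted p = 0.258 in edgeR).

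Muscle and cuticle genes overlapped between the temperatures and varied strongly from pool to pool. All 7 tested muscle genes were negative (median -0.45), none passed, and the median ranged from -1.04 to -0.33 when 1 pool was left out. The authors' deposited table had 4 positive and 16 negative of 20 and called the titin-like sls downward (-1.11, SE 0.36). Mhc1, a myosin heavy chain, had 9550, 18000, 10600 and 35100 CPM at 1.5 °C and 63900, 16200, 36600 and 16700 CPM at 12 °C (log2 fold change -0.87, SE 0.63, adjusted p = 0.725 in edgeR). Unc-89, an obscurin of the sarcomere, had 528, 743, 417 and 893 CPM at 1.5 °C and 1640, 730, 1440 and 812 CPM at 12 °C (log2 fold change -0.84, SE 0.39, adjusted p = 0.47 in edgeR). In both genes 1.5 °C pool 4 was the highest of the 1.5 °C pools and 12 °C pool 1 the highest of the 12 °C pools. Both are members of the marker sum, most of which is Mhc1, so they are no separate view of it. Tm1, also in that sum, had 21.2, 13.4, 23.2 and 11.8 CPM at 1.5 °C and 14.9, 41.2, 14.3 and 24.5 CPM at 12 °C, without that pattern.

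Cda5, a chitin deacetylase of the cuticle, had 20.2, 127, 2450 and 820 CPM at 1.5 °C and 3980, 2230, 275 and 707 CPM at 12 °C. The chitinase Cht3, which loosens old cuticle, had 990, 845, 1160 and 679 CPM at 1.5 °C and 387, 135, 103 and 920 CPM at 12 °C, high in every 1.5 °C pool and in 1 of the 12 °C pools (log2 fold change 1.25, SE 0.66, adjusted p = 0.555 in edgeR). The stage of the molt cycle of the animals is not given in the sources used here. CLEC17A, a lectin of the immune list, had 801, 1390, 1880 and 781 CPM at 1.5 °C and 1340, 1090, 5060 and 1600 CPM at 12 °C, with a single high 12 °C pool.

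**Figure D4:**
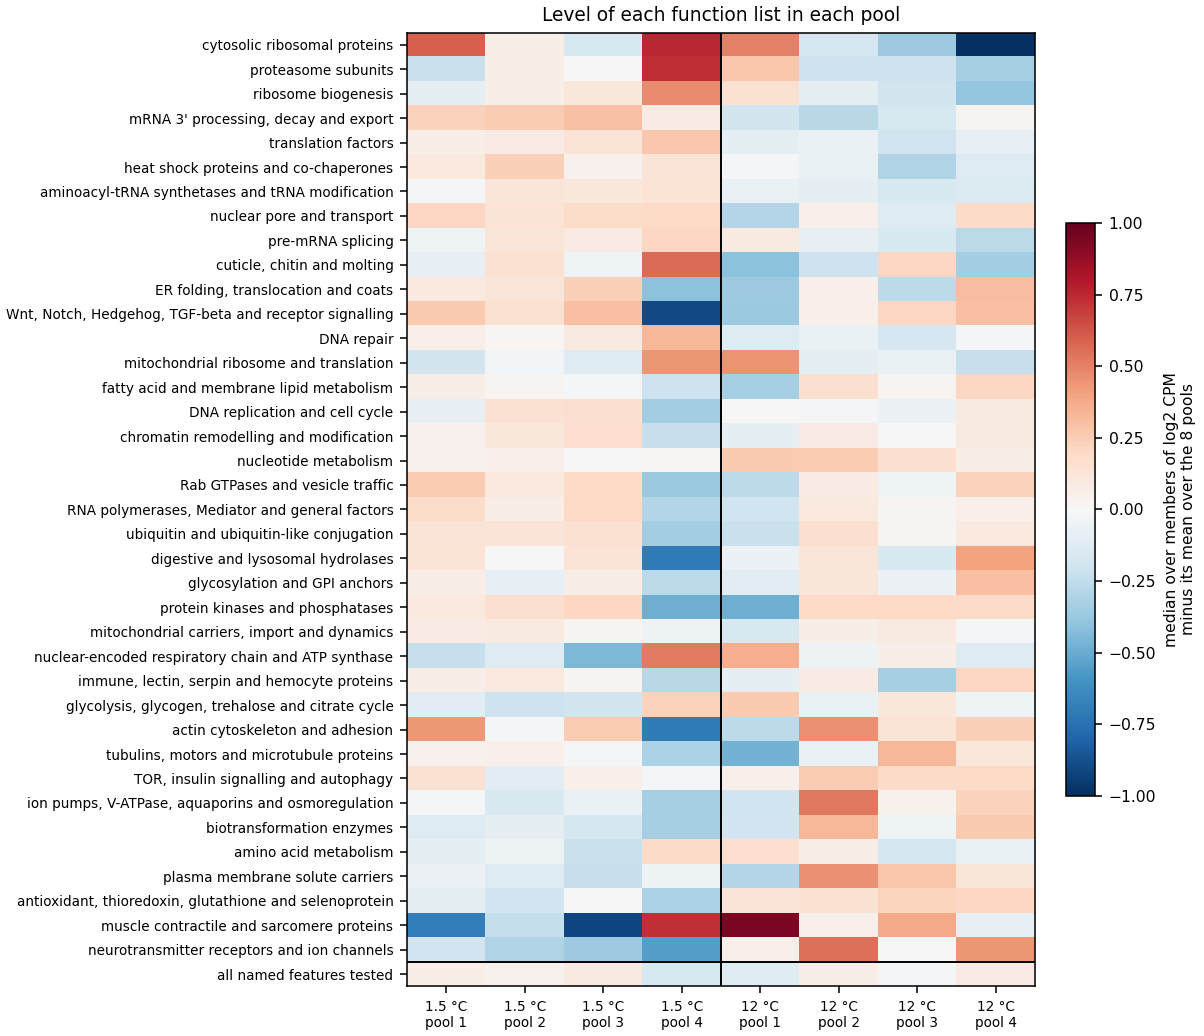
Level of each function list in each pool, as the median over the list's tested members of log2 CPM minus the member's mean over the 8 pools, from blue (low) to red (high) with the scale ending at 1 in both directions. Columns 1 to 4 are the 1.5 °C pools and columns 5 to 8 the 12 °C pools, lists run from the highest to the lowest median fold change, and the last row is all named genes. Muscle, ribosomal protein and respiratory chain lists are high in both 1.5 °C pool 4 and 12 °C pool 1.

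Names that could not be joined, or had too few reads for the test, are given in what follows from the authors' deposited table. Of its 15 lowest Wald scores, 9 belong to names that fell here. The others were rpl-9 (log2 fold change -3.94, SE 0.32), the disulfide isomerase P4HB (-4.13, SE 0.34), the mitotic kinase AURKA (-5.68, SE 0.67), the carboxypeptidase SCPEP1 (-1.93, SE 0.25), the mitochondrial Hsp70 Hsc70-5 (-4.64, SE 0.70) and the ubiquitin and SUMO ligase TOPORS (-1.80, SE 0.29). Of the 15 highest scores in the authors' deposited table, 8 belong to names that rose here. Among the others were the fly spindle protein Chro (6.84, SE 1.04), CCDC58 (1.06, SE 0.17), the transporter ABCC3 (3.07, SE 0.49), PHYKPL (2.30, SE 0.41), an enzyme of hydroxylysine breakdown, the mitochondrial protease LONP1 (2.31, SE 0.45) and ENGASE (1.18, SE 0.23), which releases sugar chains from proteins.

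A name in the authors' deposited table does not always stand for a whole gene family. There are 35 groups of names, 71 entries in all, that differ only in case or hyphen. A call was made for 1 entry in 4 of the groups, and for 2 entries in none. For ribosomal protein L9, rpl-9 was called at -3.94, while RpL9 had -1.90 (SE 0.92) with an adjusted p of 0.296, at a mean normalised count of 830 for rpl-9 and 4.89 for RpL9. For L7, RPL7 had -3.73 (SE 0.98) and RpL7 had 1.34, opposite in sign, at mean normalised counts of only 5.64 and 19.8. RpL36A, the ribosomal protein that passed above, had 1.76 (SE 0.40) in the authors' deposited table and RPL36A had 1.82 without a call there (adjusted p = 0.0855).

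The response was set against those of the other species by testing the difference of the temperature effects. The small Baikal endemic E. cyaneus (pools of about 13 animals) and the widespread G. lacustris (pools of about 11) went through the same schedule, with 4 pools at each temperature. Their own transcript assemblies were joined to E. verrucosus by name alone. Against E. cyaneus, 15 of 814 shared names (1.84%) differed at an adjusted p of 0.05 in edgeR, with 144 at an unadjusted p under 0.05. The effect in E. verrucosus was the higher one in 10 and the lower in 5, that is 66.7% higher, and 54.5% with DESeq2's size factors. The balance turned in leave-one-out fits, to 4 higher and 4 lower without E. verrucosus 12 °C pool 2, 3 higher and 5 lower without its 12 °C pool 4, and 4 higher and 5 lower without its 1.5 °C pool 1. The median difference over all names was 0.193 (log2) with TMM and -0.00557 with those size factors. The count was 25, 8, 23 and 8 without E. verrucosus 12 °C pools 1 to 4, and 9, 21, 17 and 29 without its 1.5 °C pools 1 to 4.

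The differences from E. cyaneus were led by names that were near 0 at 1 temperature in E. verrucosus. CCDC124 had 11 reads at 1.5 °C and 1793 at 12 °C in E. verrucosus, and 801 reads at 1.5 °C and 560 at 12 °C in E. cyaneus (difference of log2 fold changes -7.62, SE 0.62, adjusted p = 4.61e-07 in edgeR). ALYREF had 110 reads at 1.5 °C and 1 at 12 °C in E. verrucosus, and 8897 at 1.5 °C and 7091 at 12 °C in E. cyaneus (difference 6.25, SE 0.67, adjusted p = 1.29e-05 in edgeR). RAD50 had 414 and 51 reads at 1.5 °C and 12 °C in E. verrucosus, and 1057 and 642 in E. cyaneus (difference 2.66, SE 0.44, adjusted p = 0.00142 in edgeR).

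AMACR had a log2 fold change of -6.43 in E. verrucosus and -0.41 in E. cyaneus (difference -6.01, SE 0.80). C9orf41 had -7.56 in E. verrucosus and -0.20 in E. cyaneus (difference -7.36, SE 0.82), and YTHDC1 2.72 in E. verrucosus and 0.17 in E. cyaneus (difference 2.55, SE 0.55). Fitted values of names with 0 reads in a group depend on a small count added in the fit. MND1, a protein of meiotic recombination, had no read at 1.5 °C and 51 at 12 °C in E. verrucosus, against 289 and 193 in E. cyaneus (difference -6.99, SE 0.77, adjusted p = 5.56e-05 in edgeR). Of the 15 names, 6 had too few reads for the test within E. verrucosus and entered through the counts of E. cyaneus, MND1, GTF2E1 and OSTF1 among them, so their values rest on few reads. GTF2E1, a subunit of general transcription factor TFIIE, had 55 and 2 reads in E. verrucosus and 796 and 516 in E. cyaneus (difference 4.18, SE 0.75, adjusted p = 0.0033 in edgeR). OSTF1 had 9 reads at 1.5 °C and 0 at 12 °C in E. verrucosus (adjusted p = 0.0305 in edgeR). AMT, of the glycine cleavage system, differed through E. cyaneus, where it had 41 reads at 1.5 °C and 7 at 12 °C, while E. verrucosus had 1330 and 1427. Over the alternatives the adjusted p reached 0.0697 for YTHDC1, 0.0595 for AMT and 0.11 for OSTF1.

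Of the 25 names that passed within E. verrucosus, 10 could be set against E. cyaneus, and 6 of these differed. Those 10 had been selected by a test on the same E. verrucosus pools, which favours a difference. The remaining 4 of the 10 did not pass. RpL36A had a log2 fold change of 1.82 in E. verrucosus and 1.97 in E. cyaneus, BEST3 -1.56 and -0.99, BNIP3 -1.33 and -0.38, and YIPF6 2.16 and 0.71. The other 15, CCT6A, RAB11A, DDX42, smgl-2 and TGS1 among them, were not tested in both species. Over lists of at least 5 shared names, the median difference ran from -0.75 over 7 solute carriers to 1.04 over 5 biotransformation enzymes, against 0.19 over all names. It was 0.84 over 6 cytosolic ribosomal proteins, 0.79 over 12 tRNA synthetase and modification genes, 0.76 over 22 ribosome biogenesis genes, 0.76 over 11 proteasome subunits and 0.70 over 12 mitochondrial ribosome genes. In the mitochondrial ribosome list 1 member passed, and in the other 6 of these lists none did. Of the 814 shared names, 198 had too few reads for the test within E. verrucosus, so these lists differ in members from those described above. The median effect in E. verrucosus was 0.71 over the 5 biotransformation enzymes here, against -0.26 over the 15 tested above.

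Against G. lacustris the differences were far more common. Of 866 shared names 334 (38.6%) differed at an adjusted p of 0.05 in edgeR, 288 with the higher effect in E. verrucosus and 46 with the lower. Of the 334, 93 had too few reads for the test within E. verrucosus. The median difference was 0.616 (log2), and 0.539 with DESeq2's size factors. Many of the 334 names lay far below 0 in G. lacustris and near 0 in E. verrucosus. LARS, the leucine tRNA synthetase, had 2865 reads at 1.5 °C and 1728 at 12 °C in E. verrucosus, and 124 and 1175 in G. lacustris (difference 3.76, SE 0.43, adjusted p = 5.93e-06 in edgeR). RRM1, of ribonucleotide reductase, and PDHB, of pyruvate dehydrogenase, had effects of 0.20 and 0.19 in E. verrucosus and of -3.63 and -3.05 in G. lacustris. At 1.5 °C and 12 °C, RRM1 had 2098 and 1715 reads in E. verrucosus and 231 and 2959 in G. lacustris. PDHB had 6781 and 5395 reads in E. verrucosus but only 15 and 136 in G. lacustris.

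Of the 25 names that passed within E. verrucosus, 12 could be set against G. lacustris, and 11 of these differed. Selection by a test on the same E. verrucosus pools favours this here too. Effects of these names were opposite in sign in several cases. RAB11A had 497 reads at 1.5 °C and 48 at 12 °C in E. verrucosus, and 77 and 641 in G. lacustris (difference 6.29, SE 0.60, adjusted p = 7.43e-07 in edgeR). RpL36A had 445 and 116 reads in E. verrucosus and 198 and 2695 in G. lacustris (difference 5.46, SE 0.46, adjusted p = 1.82e-07 in edgeR). CFAP20 had 83 and 2 in E. verrucosus and 72 and 475 in G. lacustris (difference 7.56, SE 0.76, adjusted p = 1.01e-06 in edgeR). ELMOD3 had 0 and 352 in E. verrucosus and 22 and 5 in G. lacustris (difference -11.31, SE 1.33, adjusted p = 1.88e-05 in edgeR). C9orf41, at 0 and 82 in E. verrucosus, had 7960 and 6372 in G. lacustris. BEST3, with -1.56 in E. verrucosus and -1.37 in G. lacustris, was not past the threshold.

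**Figure D5:**
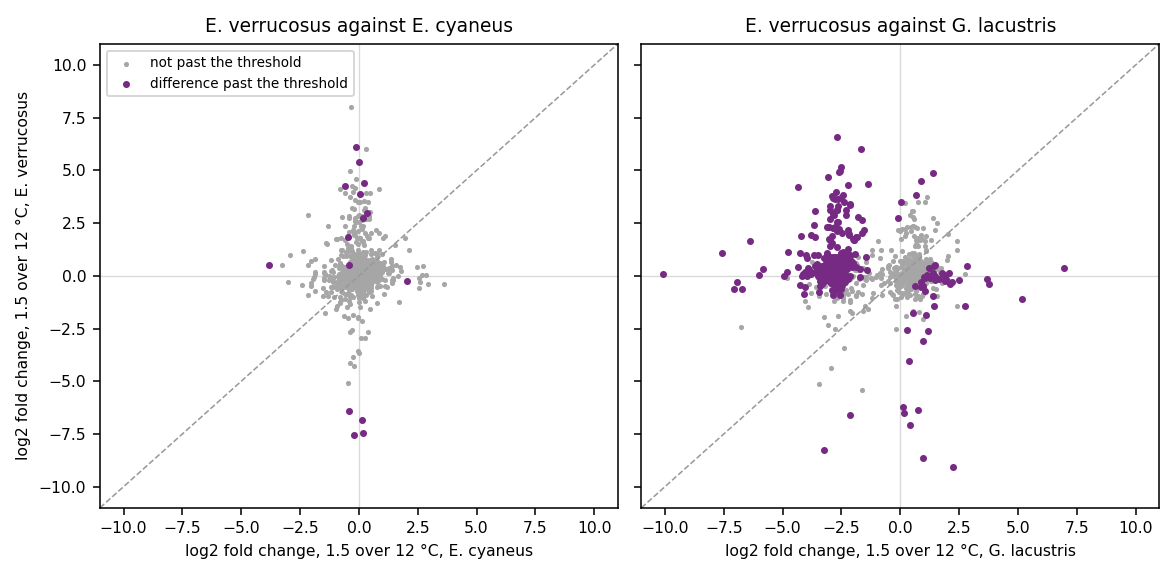
Log2 fold change (1.5 °C over 12 °C) of each shared name in E. verrucosus (vertical axis) against that in E. cyaneus (left) and G. lacustris (right), with names whose difference passed the threshold in purple, the others in grey and equality as a dashed line. Against E. cyaneus the 15 purple names lie mainly far above or below 0 in E. verrucosus and near 0 in E. cyaneus, while against G. lacustris most of the 334 lie in a separate cluster to the left, near 0 or above it in E. verrucosus.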

How the data were processed

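RNA of whole-body pools was sequenced by the submitters. Per the series' design text, reads were assembled per species with Trinity, thinned with cd-hit-est, filtered with TransRate and restricted to transcripts matching animal sequences. The submitters' processing notes name Salmon (1.1.0) and DESeq2 (1.26.0). Estimated counts per transcript, not normalised, were deposited in 1 file per library. TPM values stand beside them, per the file headers, and entered no test. For each name, the authors' deposited table gives a mean normalised count, which is a signal averaged over a species' libraries. It also gives, per the file headers, log2 fold changes and their errors, the Wald score and both raw and adjusted p-values.

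Names were joined to transcripts where the authors' mean normalised count could be rebuilt from the counts to a relative difference of 1e-12. Joined transcripts were summed and the estimated counts rounded to whole numbers. edgeR 4.0.16 (R 4.3.3) fitted 4 pools against 4 with TMM scaling, filterByExpr (minimum count 10, total 15) and its quasi-likelihood test. P-values were adjusted by Benjamini and Hochberg's method over all 23836 features. Species differences are the interaction of species and temperature over names joined in both. The SE beside an edgeR log2 fold change or difference is its absolute value divided by the square root of the test's F statistic. It is therefore not the same measure as the standard errors of the authors' deposited table. Confidence intervals of ratios with 1 to 3 reads in a group are exact (Poisson, 95%), and PCR reads are not independent molecules, so they cover counting error only. The test within E. verrucosus and that of the species differences were tested on simulated data. DESeq2 1.42.0, another scaling, no filter, unsummed transcripts, each pool left out and a replicate block were alternatives.

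Names were drawn by rule from all named features past the threshold, the 15 highest and lowest Wald scores among the authors' calls, the 3 members of smallest p and the member with most reads of each list, and the 10 names of smallest p in each species difference. Not every list member so drawn is described. Other list members called in the authors' table, and entries that share a name, were named after their values were seen. Function lists, 43 in all, were matched by symbol. Members and lists were chosen with earlier results of these data known, so they are described by counts and medians without a test. Near-identical transcripts can share reads, which the authors' estimator divides between them.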

Additional observations from a re-analysis of the deposited data

Results flagged for a closer look

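Of 54 groups of 4 pools that were checked, 8 held a pool far from the other 3, and chance alone gives about 1 in 20. UNC119 had 9.03 CPM in 12 °C pool 2, where the other 3 lay between 3.27 and 4.19 CPM. CCT6A had 51.5 CPM in 12 °C pool 3, the other 3 lying between 74.7 and 77.3 CPM. LRRC46 had 4.09 CPM in 1.5 °C pool 4 and no more than 1.79 CPM in the others. BEST3 had 2.14 CPM in 1.5 °C pool 1, below 3.35 to 3.57 CPM in the other 3. The midgut markers summed to 19.1 CPM in 1.5 °C pool 4, beside at most 14.6 CPM in the others. The remaining 3 are single reads in groups otherwise at 0, namely ALYREF in 12 °C pool 4 (0.0541 CPM) and PSMD9 and AMACR in 1.5 °C pool 3 (0.0627 CPM each).

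The temperature effect differed between species by the test of the difference itself for the names given in the results. Against E. cyaneus the difference of log2 fold changes was -7.62 for CCDC124, 6.25 for ALYREF, -6.99 for MND1, -7.36 for C9orf41, -6.01 for AMACR, 2.66 for RAD50, 4.18 for GTF2E1, 2.55 for YTHDC1, -2.29 for AMT and 4.88 for OSTF1. Against G. lacustris it was 5.46 for RpL36A, 6.29 for RAB11A, -7.50 for C9orf41, 7.56 for CFAP20, 3.76 for LARS, 3.82 for PRMT8, 3.83 for RRM1, 3.23 for PDHB, -11.31 for ELMOD3 and 9.30 for ASCC2.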

How the results depend on the processing

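DESeq2 called more, at 1371 features, 53 named genes, 32 list members and 33 differences from E. cyaneus, against 799, 25, 10 and 15 with edgeR, and all 25 named calls were among its 53. Unsummed transcripts gave 17 list members. Leaving out 1 pool gave 678 to 934 features, 21 to 37 named genes, 7 to 16 list members, 8 to 29 differences from E. cyaneus and 286 to 351 from G. lacustris. Replicate numbers did not pair the pools (correlation of their deviations -0.213, 0.0573, -0.0222 and -0.177, and no pool correlated best with its own number), and a replicate block, which spends degrees of freedom, left 187 features, 5 named genes, 3 list members and 9 differences from E. cyaneus. Without both pools that stood apart there were 830 features and 31 named genes, 22 of them shared, an alternative chosen after seeing the data, as was scaling each species by all its features, which gave 11 differences from E. cyaneus. Without a filter DDX42 (adjusted p = 0.0771), BNIP3 (0.065), BEST3 (0.0528) and RpL36A (0.0723) lost their calls. Of 350 values of the 25 named genes under alternatives 59 lost the call and 0 changed sign. Of 38 list medians 20 kept their sign in all 14 alternatives. Genes with a few reads per pool are limited by counting.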
